A study of Drosophila melanogaster with 54 samples.

Results

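Heads of control fruit flies kept at 29 °C were compared with heads of control flies kept at 18 °C, a warm against a cold environment within the range in which Drosophila melanogaster can live. The comparison used 6 of the 54 samples of the series, 3 libraries at 29 °C and 3 at 18 °C, taken by their group labels from a table of 12 RNA libraries that share 1 count table. Control flies were of strain YW, carried the ubiquitous actin5C-gal4 driver without an RNA interference construct, and have wild type as their genotype label. Flies of both temperatures were reared at 25 °C and then held as newborn adults for 3 days at 29 °C or at 18 °C, with 12 h light and 12 h dark days. The driver is therefore shared by all 6 libraries, while sex, time of day of collection and heads per library are not given in the sources used here. The study asked how the transcriptome of the head responds to a warm environment, and used the control flies as the baseline for a knockdown of the chromatin boundary protein BEAF-32.

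Flies do not regulate their body temperature, so that enzyme rates, membrane fluidity and protein stability in the head follow the environment. Protein folding in warm cells depends on heat shock proteins, which bind unfolded chains, and fluid membranes in the cold depend on desaturases, which put double bonds into fatty acids. The head of an adult fly holds the brain, the compound eyes with their pigment and photoreceptor cells, glia, fat body, muscle of the proboscis, sense organs and a cuticle that is still maturing in young adults.

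The libraries held 5184789, 4995229 and 5300995 counts at 29 °C and 5058802, 7146191 and 3588440 counts at 18 °C, in which 3 counts, the most that an observed 0 permits by counting error, correspond to 0.407 to 0.804 CPM (counts per 1e6 counts, scaled by library composition). Across genes, libraries of the same temperature correlated at r = 0.984 to 0.987 on log CPM and libraries of different temperatures at r = 0.942 to 0.956, a description over genes that are not independent of each other. The first principal component of the 6 libraries held 68.2% of the variance and separated the temperatures, and the second held 9.40%. Single libraries stood apart in a few genes of other tissues: the second 29 °C library held flight muscle transcripts (Act88F at 211 CPM, against 1.84 and 3.56 CPM in the other two), the first 29 °C library held olfactory transcripts (Os-C at 23.5 CPM, listed at 0 in the other 5), and the second 18 °C library had the lowest roX2 and the highest Yp1 of its group. Defining markers of a head were present, with photoreceptor marker genes summing to 37117 to 38192 CPM at 29 °C and 20719 to 21570 CPM at 18 °C. The gut proteases betaTry and Jon65Ai, the ovary genes osk, nos and Cp36 and the testis or accessory gland genes dj, Acp26Aa and SP were at 0 in all 6 libraries. Other genes of these tissues had reads. The gut gene Mal-A1 had 4.48 to 9.18 CPM and Mal-A6 0.999 to 2.14 CPM. Summed ovary markers reached 0.268 CPM and testis and accessory gland markers 0.999 CPM. The eggshell gene Cp18 had means of 2.11 CPM at 29 °C and 0.346 CPM at 18 °C. The labels do not tell whether replicate libraries stem from separate cultures, and p-values therefore reflect only how far these samples scatter, which can be technical scatter.

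The head transcriptome differed broadly between the 29 °C and the 18 °C libraries, and in both directions. Of 9056 genes with enough counts to be tested, 3440 passed edgeR's quasi-likelihood test at a Benjamini-Hochberg adjusted p of 0.05, which is 38.0% of those tested. Higher levels at 29 °C were called for 1646 genes (18.2%) and lower levels for 1794 genes (19.8%). Scaling by library totals alone moved that balance to 1144 raised and 2241 lowered genes, and shifted the median log2 fold change of all tested genes to -0.10, against 0.00 with composition scaling. Most changes were modest, since the median called gene changed 1.49-fold where raised and 1.50-fold where lowered. At least 2-fold changes were called for 660 genes (7.29%), 287 of them raised (3.17%) and 373 lowered (4.12%), and at least 10-fold changes for 15 raised and 24 lowered genes. The groups did not overlap in 49.1% of the tested genes, with all warm libraries above the cold ones in 24.2% and below them in 24.9%. Raised genes took 52.5%, 50.8% and 51.0% of all counts at 29 °C, against 34.5%, 37.1% and 33.9% at 18 °C, and lowered genes took 19.9%, 21.0% and 20.7% at 29 °C, against 34.9%, 32.5% and 35.99% at 18 °C. BEAF-32 itself, the boundary protein targeted elsewhere in the study, had 32.8, 35.5 and 35.2 CPM at 29 °C, against 32.2, 34.5 and 39.1 CPM at 18 °C (log2 fold change -0.02 with SE 0.143, edgeR adjusted p = 0.931), and its groups overlapped. In bulk heads fewer cells of a type and less RNA per cell cannot be told apart, which holds for each gene and list below.

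**Figure D1:**
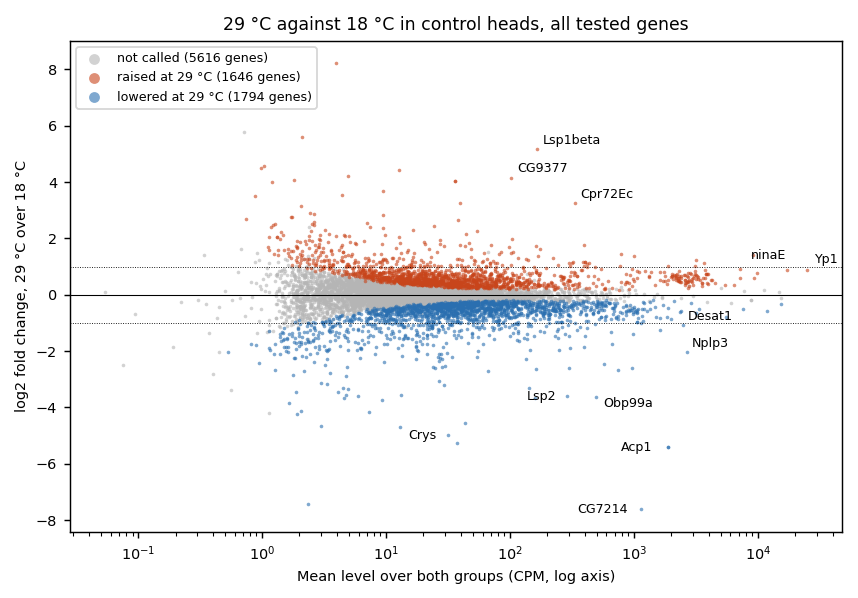
Log2 fold change (29 °C over 18 °C, vertical axis) against the mean CPM of both groups (log axis) for each of the 9056 tested genes, with raised genes in red, lowered genes in blue, genes not called in grey and dotted lines at 2-fold. The 1646 raised and 1794 lowered genes lie on both sides of 0 over the whole range of levels.

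Precision and the share of genes called differed with the level of a gene. Among 1108 genes with a mean of at least 100 CPM, 67.3% were called, with a median SE of the log2 fold change of 0.0852. Among 5311 genes of 10 to 100 CPM the share was 39.3% and the median SE 0.127, and among 2341 genes of 2 to 10 CPM it was 22.3% with a median SE of 0.258. Among 296 genes under 2 CPM the median SE was 0.472 and 28.4% were called, a larger share than at 2 to 10 CPM. The filter on counts can admit a gene of this class through a single group where it is high. Its shares called are therefore partly set by the filter and do not compare with those of the other classes. Changes of at least 2-fold were called for 8.30%, 4.31%, 11.0% and 27.7% of these 4 classes.

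The largest rises and falls were taken from called genes averaging 5 CPM or more without overlap between groups. Separate groups are therefore part of that choice. Among these genes, the largest rises belonged to a storage protein, small heat shock proteins, a cuticle protein and several genes of unknown function. Lsp1beta, a larval serum storage protein, had 222, 453 and 287 CPM at 29 °C, against 6.51, 11.1 and 8.31 CPM at 18 °C (log2 fold change 5.17 with SE 0.250, edgeR adjusted p = 3.02e-12). Its warm libraries stood far above the cold ones. CG9377 had 169.9, 210.1 and 205 CPM at 29 °C, against 11.2, 13.98 and 5.36 CPM at 18 °C (log2 fold change 4.16 with SE 0.170, edgeR adjusted p = 2.47e-13). CG18673, named CAH5 in RefSeq and so of the carbonic anhydrase family, had 23.5, 22.2 and 28.1 CPM at 29 °C, against 0.181, 2.31 and 0.268 CPM at 18 °C (log2 fold change 4.41 with SE 0.367, edgeR adjusted p = 7.17e-09). Neither gene had a cold library near a warm one, and 2 of the 3 cold levels of CG18673 were under the 3-count limit. Cpr72Ec, a chitin-binding cuticle protein, had 675, 619 and 523 CPM at 29 °C, against 66.2, 59.0 and 65.9 CPM at 18 °C (log2 fold change 3.25 with SE 0.114, edgeR adjusted p = 4.12e-14). Its rise ran against the other called members of the cuticle list, which all fell. SelD, a selenophosphate synthetase, had 28.1, 29.6 and 23.96 CPM at 29 °C, against 5.25, 4.89 and 6.97 CPM at 18 °C (log2 fold change 2.30 with SE 0.182, edgeR adjusted p = 3.67e-09). The P450 gene Cyp4d1 had 12.0, 12.2 and 11.4 CPM at 29 °C, against 2.17, 1.76 and 2.14 CPM at 18 °C, and its groups were separated by more than the whole spread of either (log2 fold change 2.56 with SE 0.220, edgeR adjusted p = 1.15e-08).

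Noncoding RNA genes stood among the largest rises. CR44030 had 88.7, 85.7 and 92.5 CPM at 29 °C, against 18.6, 18.2 and 18.2 CPM at 18 °C, with hardly any spread within a group (log2 fold change 2.28 with SE 0.0894, edgeR adjusted p = 1.42e-13). CR44662 had 17.3, 15.98 and 16.7 CPM at 29 °C, against 2.53, 1.90 and 2.68 CPM at 18 °C (log2 fold change 2.85). CR46195 had 16.1, 16.4 and 15.2 CPM at 29 °C, against 2.35, 3.80 and 2.68 CPM at 18 °C (log2 fold change 2.37), although it overlaps Trf4-1. In each of these RNAs the warm libraries were alike and several times the cold ones. roX2, a noncoding RNA that helps to upregulate the X chromosome in males, had 56.7, 60.9 and 76.2 CPM at 29 °C, against 15.6, 4.34 and 12.9 CPM at 18 °C (log2 fold change 2.66 with SE 0.343, edgeR adjusted p = 2.90e-06). Of 124 tested long noncoding RNA genes, 36 rose and 18 fell, and of 8748 protein-coding genes 1567 rose and 1745 fell. The median level was 4.50 CPM for the long noncoding and 20.2 CPM for the coding genes, and the median log2 fold change was 0.13 for the long noncoding and 0.00 for the coding genes.

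The deepest falls of that selection were in cuticle, antibacterial and lens genes, again without overlap between groups by choice. CG7214, which was placed in the cuticle list, had 3.06, 28.0 and 3.56 CPM at 29 °C, against 2233, 1449.6 and 3081 CPM at 18 °C (log2 fold change -7.62 with SE 0.450, edgeR adjusted p = 4.49e-11). Warm and cold libraries did not come near each other. Acp1, an adult cuticle protein, had 81.2, 145 and 33.9 CPM at 29 °C, against 3713, 2291 and 5017 CPM at 18 °C (log2 fold change -5.41 with SE 0.352, edgeR adjusted p = 2.09e-10), a value nearly equal to that of CG31904, so that the reads of the pair could not be told apart. No library of one temperature overlapped the other. Crys, a secreted protein of the corneal lens, had 1.63, 1.80 and 2.06 CPM at 29 °C, against 57.5, 41.9 and 83.1 CPM at 18 °C (log2 fold change -4.99 with SE 0.275, edgeR adjusted p = 1.94e-11). Obp99a, of the odorant-binding family, had 96.1, 69.5 and 57.8 CPM at 29 °C, against 617, 899 and 1228 CPM at 18 °C (log2 fold change -3.62 with SE 0.201, edgeR adjusted p = 2.20e-11). Lsp2, also a serum storage protein, fell where Lsp1beta rose, with 18.4, 76.3 and 36.7 CPM at 29 °C, against 366, 510.2 and 721 CPM at 18 °C (log2 fold change -3.60 with SE 0.360, edgeR adjusted p = 1.04e-07). The groups of all 3 genes were fully separate. CG13639 had 1.02, 0.599 and 0.562 CPM at 29 °C, against 13.03, 12.1 and 16.1 CPM at 18 °C (log2 fold change -4.18). CG8736 had 16.1, 57.3 and 4.49 CPM at 29 °C, against 261, 174 and 339 CPM at 18 °C (log2 fold change -3.31). The noncoding gene CR44404 had 1.22, 0.399 and 0.749 CPM at 29 °C, against 6.15, 5.43 and 63.2 CPM at 18 °C (log2 fold change -4.71). It was high in the third 18 °C library, and without that library its log2 fold change was -2.83 (edgeR adjusted p = 0.143). CR45045, also noncoding, had 1.02, 1.40 and 0.936 CPM at 29 °C, against 1.63, 8.69 and 41.8 CPM at 18 °C (log2 fold change -3.72), and the same library left out gave a log2 fold change of -2.29 (edgeR adjusted p = 0.104). limma voom called neither, with adjusted p of 0.276 for CR44404 and 0.202 for CR45045.

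**Figure D2:**
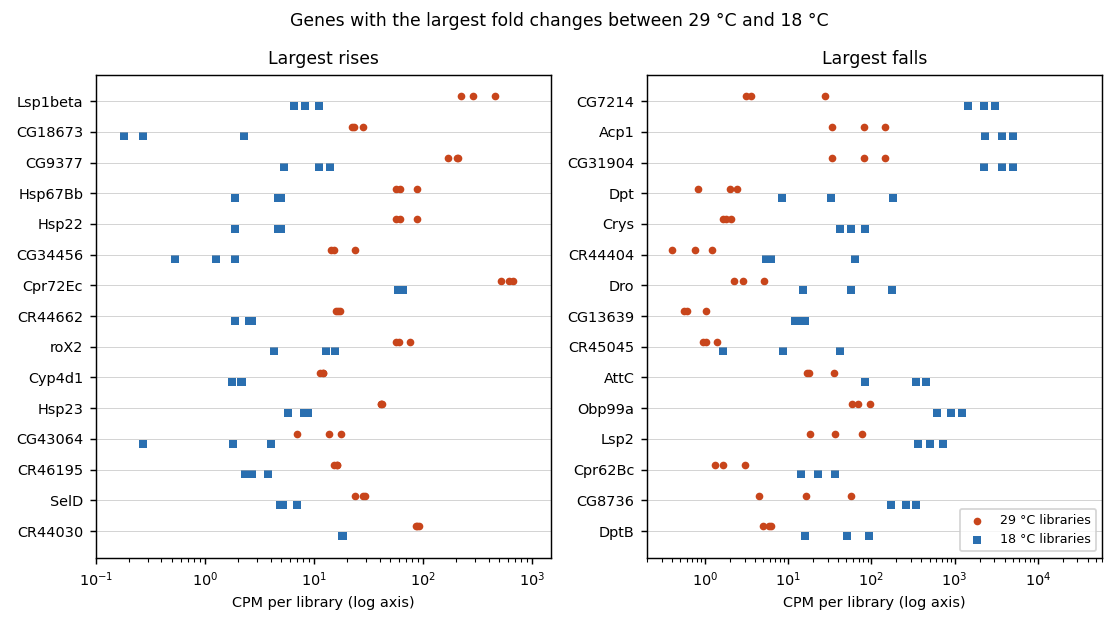
Levels per library (CPM, log axis) of the 15 genes with the largest rises (left) and the 15 with the largest falls (right), with 29 °C libraries as red circles and 18 °C libraries as blue squares. The genes were chosen without overlap between groups, so that for each the 3 red circles lie wholly above or wholly below the 3 blue squares.

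Gains and losses of CPM were ranked among called genes without overlap between groups, so separate groups are part of that choice. The largest gains were in a yolk protein, the eye genes ninaE, Arr2 and Arr1, a metallothionein and translation genes. Yp1, a yolk protein made in fat body of females, had 34686, 30284 and 31000.5 CPM at 29 °C, against 11784, 23484 and 17386 CPM at 18 °C (log2 fold change 0.87 with SE 0.189, edgeR adjusted p = 9.74e-04). The cold libraries spread widely, yet each lay below every warm one. MtnA, a metallothionein, had 15875, 12376 and 11462 CPM at 29 °C, against 5275, 5349 and 4393 CPM at 18 °C (log2 fold change 1.40 with SE 0.131, edgeR adjusted p = 3.86e-08), so that the warm libraries stood more than 2-fold above the cold. CG15068, named BomS6 in RefSeq and so one of the bomanin immune peptides, had 5629, 4836 and 4809.8 CPM at 29 °C, against 2139, 2596 and 2216 CPM at 18 °C (log2 fold change 1.14 with SE 0.105, edgeR adjusted p = 3.61e-08). The largest losses in this ranking, besides Acp1, its partner CG31904 and CG7214, were in Nplp2, Nplp3, CG17108, Desat1, ATPsynC, CG11458 and Mlc2. Yp2 lost more, with means of 9370 CPM at 29 °C and 14120 CPM at 18 °C, but its groups overlapped and it was not ranked. CG17108 had 4155, 4107 and 3979 CPM at 29 °C, against 7096, 6974 and 7048 CPM at 18 °C (log2 fold change -0.79 with SE 0.0784, edgeR adjusted p = 9.97e-08). CG11458 had 271, 253 and 289 CPM at 29 °C, against 1565, 1184 and 2189 CPM at 18 °C (log2 fold change -2.60 with SE 0.152, edgeR adjusted p = 4.07e-11). Neither showed overlap. Nplp2, a neuropeptide-like precursor, had 14328, 13023 and 13555 CPM at 29 °C, against 15264, 18550.4 and 16998 CPM at 18 °C (log2 fold change -0.31 with SE 0.0957, edgeR adjusted p = 0.0132). Its call was lost without the second library of either temperature (edgeR adjusted p = 0.05001 without the cold and 0.0568 without the warm one).

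Most tested genes of the small heat shock, Hsp70 and Hsp90, and chaperonin lists rose at 29 °C, whereas most of those that fold proteins in the endoplasmic reticulum did not pass. Of 12 small heat shock proteins, 7 rose and 2 fell, with a median log2 fold change of 1.22, where 0.00 is the median of all tested genes and 18.2% and 19.8% are their shares raised and lowered. Hsp22, a chaperone of mitochondria, had 87.7, 56.3 and 61.2 CPM at 29 °C, against 4.70, 5.02 and 1.88 CPM at 18 °C, equal in every library to the overlapping Hsp67Bb, so that the count of 7 includes the same reads more than once. Hsp23 had 41.2, 41.9 and 41.6 CPM at 29 °C, against 5.79, 8.82 and 8.04 CPM at 18 °C (log2 fold change 2.45 with SE 0.129, edgeR adjusted p = 1.13e-11). The warm libraries of Hsp23 agreed within 1 CPM. l(2)efl, which overlaps St3, had 125, 113 and 110.1 CPM at 29 °C, against 51.2, 53.2 and 61.9 CPM at 18 °C (log2 fold change 1.07 with SE 0.100, edgeR adjusted p = 3.85e-08), whereas CG7409 and CG14207 fell (log2 fold changes -0.72 and -0.42).

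The larger chaperones followed with smaller changes. Of 24 Hsp70 and Hsp90 genes and cofactors that were tested, 15 rose and the other 9 did not pass (median log2 fold change 0.66). CG1416 had 70.0, 63.3 and 77.3 CPM at 29 °C, against 26.8, 31.1 and 24.7 CPM at 18 °C (log2 fold change 1.33 with SE 0.0980, edgeR adjusted p = 1.25e-09). Hop, which links Hsp70 to Hsp90, had 115, 92.3 and 99.0 CPM at 29 °C, against 44.1, 50.4 and 38.9 CPM at 18 °C (log2 fold change 1.18 with SE 0.0993, edgeR adjusted p = 8.64e-09). CG11267 and the J-domain protein DnaJ-1, which recruits Hsp70, had log2 fold changes of 0.97 and 0.96. The constitutive Hsc70-4 had 2372, 2380.1 and 2748 CPM at 29 °C, against 1392, 1696 and 1468 CPM at 18 °C (log2 fold change 0.72 with SE 0.0980, edgeR adjusted p = 5.94e-06). The inducible Hsp70Bc had 9.99, 5.79 and 10.7 CPM at 29 °C, against 3.08, 2.17 and 2.14 CPM at 18 °C (log2 fold change 1.83 with SE 0.304, edgeR adjusted p = 6.10e-05), and since its near-identical copies share reads no single copy is certain. All of these were higher in every warm library. Of 14 subunits of the CCT chaperonin, which folds actin and tubulin, and of prefoldin, 9 rose and 5 did not pass (median log2 fold change 0.40), among them T-cp1 with 66.5, 58.3 and 60.8 CPM at 29 °C, against 34.2, 39.0 and 29.5 CPM at 18 °C (log2 fold change 0.83 with SE 0.0979, edgeR adjusted p = 9.00e-07). Most genes of folding in the endoplasmic reticulum did not pass. Of 21, 4 rose and 2 fell at a median of -0.03. The raised share was close to the 18.2% of all tested genes, and the lowered share was below their 19.8%. With a library left out the raised count ran from 1 to 4. It was lowest without the first 29 °C or the third 18 °C library, and 2 without the second 29 °C or the first 18 °C library. The lowered count was 1 without the first or the third 18 °C library, and library totals alone gave 1 raised and 6 lowered members. The largest rise among them was that of crc, the fly ATF4 transcription factor, with 1163, 1171 and 1173 CPM at 29 °C, against 816, 812 and 843 CPM at 18 °C (log2 fold change 0.50 with SE 0.0740, edgeR adjusted p = 1.40e-05).

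Proteasome subunits, which degrade marked proteins, lay on the other side of 0. Of 32, 15 fell and 17 did not pass (median log2 fold change -0.20), and without the third 29 °C library 7 fell. Prosbeta3 had 61.6, 64.9 and 61.8 CPM at 29 °C, against 90.6, 89.6 and 95.7 CPM at 18 °C (log2 fold change -0.55 with SE 0.0778, edgeR adjusted p = 9.36e-06). Rpn7 had 37.5, 42.9 and 39.3 CPM at 29 °C, against 53.0, 60.0 and 64.8 CPM at 18 °C (log2 fold change -0.56 with SE 0.0978, edgeR adjusted p = 9.60e-05), with every warm library below every cold one in both. Overlapping genes were Prosbeta3 with CG11980 and Rpn7 with CG34376.

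Ribosomal protein genes rose nearly as a whole. Of 81 cytosolic ribosomal protein genes, 79 rose and the other 2 (RpL19 and RpL41, with log2 fold changes of 0.24 and 0.14) did not pass, and the median log2 fold change was 0.56, or 0.46 with library totals alone, which called 78. Ribosomal protein genes took 29.5%, 27.4% and 27.3% of all counts at 29 °C, against 19.9%, 21.7% and 19.4% at 18 °C. sta, a protein of the small subunit, had 4922, 4284 and 4216 CPM at 29 °C, against 1785, 2068 and 1869.5 CPM at 18 °C (log2 fold change 1.23 with SE 0.0959, edgeR adjusted p = 2.98e-09). RpL5 had 10466, 8803 and 8475 CPM at 29 °C, against 4826, 5269.7 and 4803 CPM at 18 °C (log2 fold change 0.90 with SE 0.0952, edgeR adjusted p = 2.26e-07). RpS29 had 5102, 4479 and 4879 CPM at 29 °C, against 2522, 2799 and 2531 CPM at 18 °C (log2 fold change 0.88). The ranges of the groups were well apart in all 3 genes.

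Factors that start and extend translation rose in 22 of 36 cases and fell in 3, at a median log2 fold change of 0.29. Ef1alpha48D, the elongation factor that brings tRNAs to the ribosome, had 12116, 9799 and 11591 CPM at 29 °C, against 6642, 8737 and 7051 CPM at 18 °C (log2 fold change 0.58 with SE 0.114, edgeR adjusted p = 3.82e-04). pAbp, the poly(A)-binding protein, had 1266, 1226 and 1269 CPM at 29 °C, against 655, 629.5 and 696 CPM at 18 °C (log2 fold change 0.93 with SE 0.0772, edgeR adjusted p = 7.70e-09). Tango7, a subunit of the initiation factor eIF3, had 434, 392 and 399 CPM at 29 °C, against 185, 198 and 171 CPM at 18 °C (log2 fold change 1.14 with SE 0.0857, edgeR adjusted p = 1.71e-09), and it was the largest rise of the list. Warm libraries were higher throughout for these 3 factors. Within the same eIF3 complex eIF-3p66 fell, with 61.6, 66.1 and 49.6 CPM at 29 °C, against 97.2, 103 and 101.0 CPM at 18 °C (log2 fold change -0.76 with SE 0.102, edgeR adjusted p = 4.21e-06), and eIF3-S10 fell with a log2 fold change of -0.28. eEF1delta fell too, to 141, 130.02 and 129.9 CPM at 29 °C, against 185, 206 and 192 CPM at 18 °C (log2 fold change -0.54 with SE 0.0769, edgeR adjusted p = 9.27e-06), while Ef1beta and Ef1gamma of the same exchange factor rose (log2 fold changes 0.80 and 0.83).

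Genes that serve the ribosome held raised, lowered and uncalled members. Of 20 cytosolic tRNA synthetases, 8 rose and 12 did not pass (median 0.20), with Aats-asp at 63.0, 61.9 and 62.1 CPM at 29 °C, against 44.9, 48.7 and 41.0 CPM at 18 °C (log2 fold change 0.46 with SE 0.0877, edgeR adjusted p = 2.43e-04). Scaling by library totals alone left 4 raised and 1 lowered synthetase. Of 33 ribosome biogenesis genes, 6 rose and 1 fell, which is 18.2% and 3.03%, against 18.2% and 19.8% of all tested genes (median 0.20). The lowered gene was Ns2 (log2 fold change -0.28), not called without the second 29 °C library, and 10 were raised without the second 18 °C library. Non1, a nucleolar GTP-binding protein, had 655, 568 and 568 CPM at 29 °C, against 268, 295 and 262 CPM at 18 °C (log2 fold change 1.12 with SE 0.0914, edgeR adjusted p = 5.64e-09). Tif-IA, a factor of RNA polymerase I, had 60.6, 56.9 and 58.0 CPM at 29 °C, against 35.5, 40.04 and 36.4 CPM at 18 °C (log2 fold change 0.64 with SE 0.0931, edgeR adjusted p = 1.23e-05). Of 73 genes of the mitochondrial ribosome 14 rose and 9 fell, which is 19.2% and 12.3%, against 18.2% and 19.8% of all tested genes. The median of 0.07 turned to -0.02, with 6 raised and 13 lowered, under library totals alone. The raised count of this list was 9 without the first or second 29 °C library and 8 without the second 18 °C one. The lowered count was 5 without the first 18 °C library. mRpS14 had 48.9, 49.7 and 44.2 CPM at 29 °C, against 79.6, 72.9 and 72.6 CPM at 18 °C (log2 fold change -0.66 with SE 0.0804, edgeR adjusted p = 1.52e-06). Overlapping genes were Aats-asp with CR43468 and Nmda1 and mRpS14 with CG32533.

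**Figure D3:**
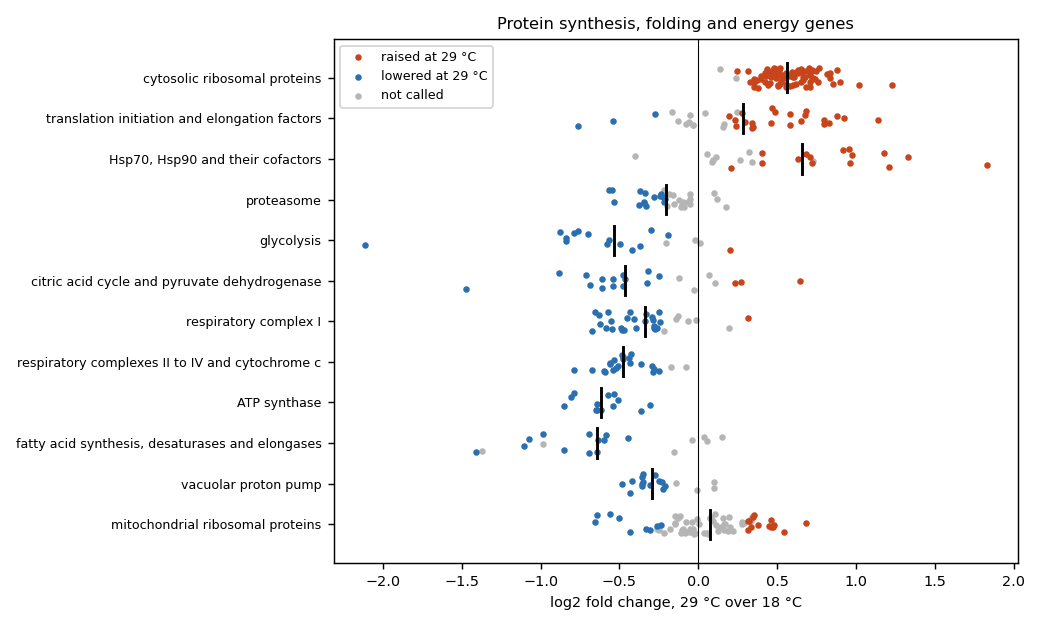
Log2 fold change (29 °C over 18 °C) of each tested gene of 12 lists, 1 point per gene, with raised genes in red, lowered genes in blue, genes not called in grey and a black bar at the median of each list; vertical scatter within a row has no meaning. Ribosomal proteins (median 0.56) lie to the right of 0 and ATP synthase subunits (median -0.62) to the left.

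Genes of energy metabolism fell along most of the route from sugar to ATP. All 13 ATP synthase subunits fell (median log2 fold change -0.62). ATPsynbeta, of the catalytic head, had 1368, 1350.3 and 1348 CPM at 29 °C, against 2345, 2144 and 2617 CPM at 18 °C (log2 fold change -0.81 with SE 0.0808, edgeR adjusted p = 1.10e-07). blw, the alpha subunit, had 1082, 1143 and 1116 CPM at 29 °C, against 1957, 1606 and 2200.4 CPM at 18 °C (log2 fold change -0.79 with SE 0.0944, edgeR adjusted p = 1.20e-06). ATPsynC, of the proton ring, had 2508, 2534 and 2427 CPM at 29 °C, against 3841, 3523 and 4279 CPM at 18 °C (log2 fold change -0.64 with SE 0.0810, edgeR adjusted p = 2.33e-06). Every cold library of these subunits lay above every warm one. Of 23 subunits of complexes II to IV and cytochrome c, 21 fell (median -0.48). SdhB, of succinate dehydrogenase, had 179.9, 176 and 187 CPM at 29 °C, against 314, 296 and 331 CPM at 18 °C (log2 fold change -0.79 with SE 0.0800, edgeR adjusted p = 1.20e-07). The cytochrome c gene Cyt-c-p had 267, 314 and 269 CPM at 29 °C, against 451, 408 and 498 CPM at 18 °C (log2 fold change -0.68 with SE 0.0867, edgeR adjusted p = 2.72e-06). Complex I, the entry point of NADH, had 25 lowered members and 1 raised among 32 (median -0.34), with ND-42 at 164, 159 and 145 CPM at 29 °C, against 252, 223 and 263 CPM at 18 °C (log2 fold change -0.66 with SE 0.0837, edgeR adjusted p = 2.49e-06). The raised subunit was ND-SGDH (log2 fold change 0.32), and without the third 18 °C library 2 subunits were called raised. Overlapping genes were ATPsynbeta with CG11076, ATPsynC with RNaseP:RNA and SdhB with CG15237.

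In the citric acid cycle and the pyruvate dehydrogenase complex that feeds it, 14 of 21 genes fell and 3 rose (median -0.46). Men, the malic enzyme, which makes NADPH, had 159, 167 and 151 CPM at 29 °C, against 433, 415 and 480.2 CPM at 18 °C (log2 fold change -1.48 with SE 0.0897, edgeR adjusted p = 7.15e-11). The groups of Men were separated by more than 2-fold. The pyruvate dehydrogenase alpha subunit gene l(1)G0334 had 248, 233 and 195 CPM at 29 °C, against 364, 331 and 394 CPM at 18 °C (log2 fold change -0.69 with SE 0.0962, edgeR adjusted p = 8.15e-06). Its partner CG11876, the beta subunit, had 231, 237 and 209 CPM at 29 °C, against 375, 334.02 and 404 CPM at 18 °C (log2 fold change -0.71 with SE 0.0867, edgeR adjusted p = 1.37e-06). The 3 raised genes, CG5214, skap and Sucb (log2 fold changes 0.27, 0.24 and 0.64), became 1 without the third 29 °C library or with library totals alone.

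Glycolysis showed the same direction. Of 18 genes, 14 fell (median -0.53), and Pgm was called raised (log2 fold change 0.20) but lost the call without the first or the third 29 °C library or the first or second 18 °C one, and with library totals alone. ImpL3, lactate dehydrogenase, had 8.77, 10.8 and 10.3 CPM at 29 °C, against 40.7, 46.3 and 42.1 CPM at 18 °C (log2 fold change -2.11 with SE 0.139, edgeR adjusted p = 2.32e-10), which was the deepest fall of the list. Gapdh1 had 1209.9, 1164 and 1099 CPM at 29 °C, against 2071, 2013 and 2122 CPM at 18 °C (log2 fold change -0.84 with SE 0.0795, edgeR adjusted p = 4.86e-08). Pgk, phosphoglycerate kinase, which overlaps Bacc and Cwc25, had 359, 356 and 387 CPM at 29 °C, against 652, 659.8 and 717 CPM at 18 °C (log2 fold change -0.88 with SE 0.0822, edgeR adjusted p = 3.86e-08). The cold libraries were the higher ones in each of these enzymes. Gpdh, the glycerol-3-phosphate dehydrogenase, had 501, 544 and 525 CPM at 29 °C, against 873, 904 and 935 CPM at 18 °C (log2 fold change -0.79 with SE 0.0776, edgeR adjusted p = 8.42e-08). Glycogen and trehalose, the stored and circulating sugars of insects, had 8 lowered and 2 raised genes of 12 (median -0.45). AGBE, the glycogen branching enzyme, had 132, 118 and 124 CPM at 29 °C, against 342, 335 and 399.8 CPM at 18 °C (log2 fold change -1.53 with SE 0.0930, edgeR adjusted p = 7.15e-11). CG9485, the debranching enzyme, had 234, 174 and 194 CPM at 29 °C, against 379.8, 319 and 415 CPM at 18 °C (log2 fold change -0.88 with SE 0.108, edgeR adjusted p = 1.51e-06). The 2 raised genes were the phosphoenolpyruvate carboxykinases. Pepck had 259, 329 and 354 CPM at 29 °C, against 109, 106 and 172 CPM at 18 °C (log2 fold change 1.29 with SE 0.184, edgeR adjusted p = 9.67e-06). CG10924 had 2.24, 2.20 and 2.81 CPM at 29 °C, against 1.27, 0.136 and 0.268 CPM at 18 °C (log2 fold change 2.11 with SE 0.565, edgeR adjusted p = 0.00534). Without the second 18 °C library 1 of the pair was called.

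Lipid genes were lower at 29 °C as well. Of 19 tested genes of fatty acid synthesis, desaturation and elongation, 12 fell and 7 did not pass (median -0.64). Desat1, the main delta-9 desaturase, had 1654, 1502 and 1606 CPM at 29 °C, against 3273, 3399 and 3368 CPM at 18 °C (log2 fold change -1.08 with SE 0.0782, edgeR adjusted p = 1.05e-09). Its libraries were tight within each temperature and 2-fold apart between them. Genes of the elongase family fell as well. CG31522 had 63.0, 56.1 and 55.4 CPM at 29 °C, against 121, 120.1 and 135 CPM at 18 °C (log2 fold change -1.10 with SE 0.0918, edgeR adjusted p = 7.17e-09). CG33110 had 9.59, 12.6 and 12.5 CPM at 29 °C, against 31.7, 28.0 and 34.0 CPM at 18 °C (log2 fold change -1.41 with SE 0.129, edgeR adjusted p = 2.93e-08), and CG5326 had a log2 fold change of -0.98. The fatty acid synthase FASN1, the carboxylase ACC and the citrate lyase ATPCL had log2 fold changes of -0.59, -0.60 and -0.64 and passed the test. Fatty acid oxidation and lipolysis had 9 lowered genes of 16 (median -0.38), with the thiolase yip2 at 151, 166 and 170.3 CPM at 29 °C, against 250.1, 281 and 242 CPM at 18 °C (log2 fold change -0.67 with SE 0.0817, edgeR adjusted p = 1.52e-06). The vacuolar proton pump, which acidifies vesicles and spends ATP, had 14 lowered subunits of 18 (median -0.29), with Vha26 at 226, 227 and 240.2 CPM at 29 °C, against 316, 289 and 332 CPM at 18 °C (log2 fold change -0.43 with SE 0.0767, edgeR adjusted p = 1.26e-04). CR43629 overlaps CG31522.

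**Figure D4:**
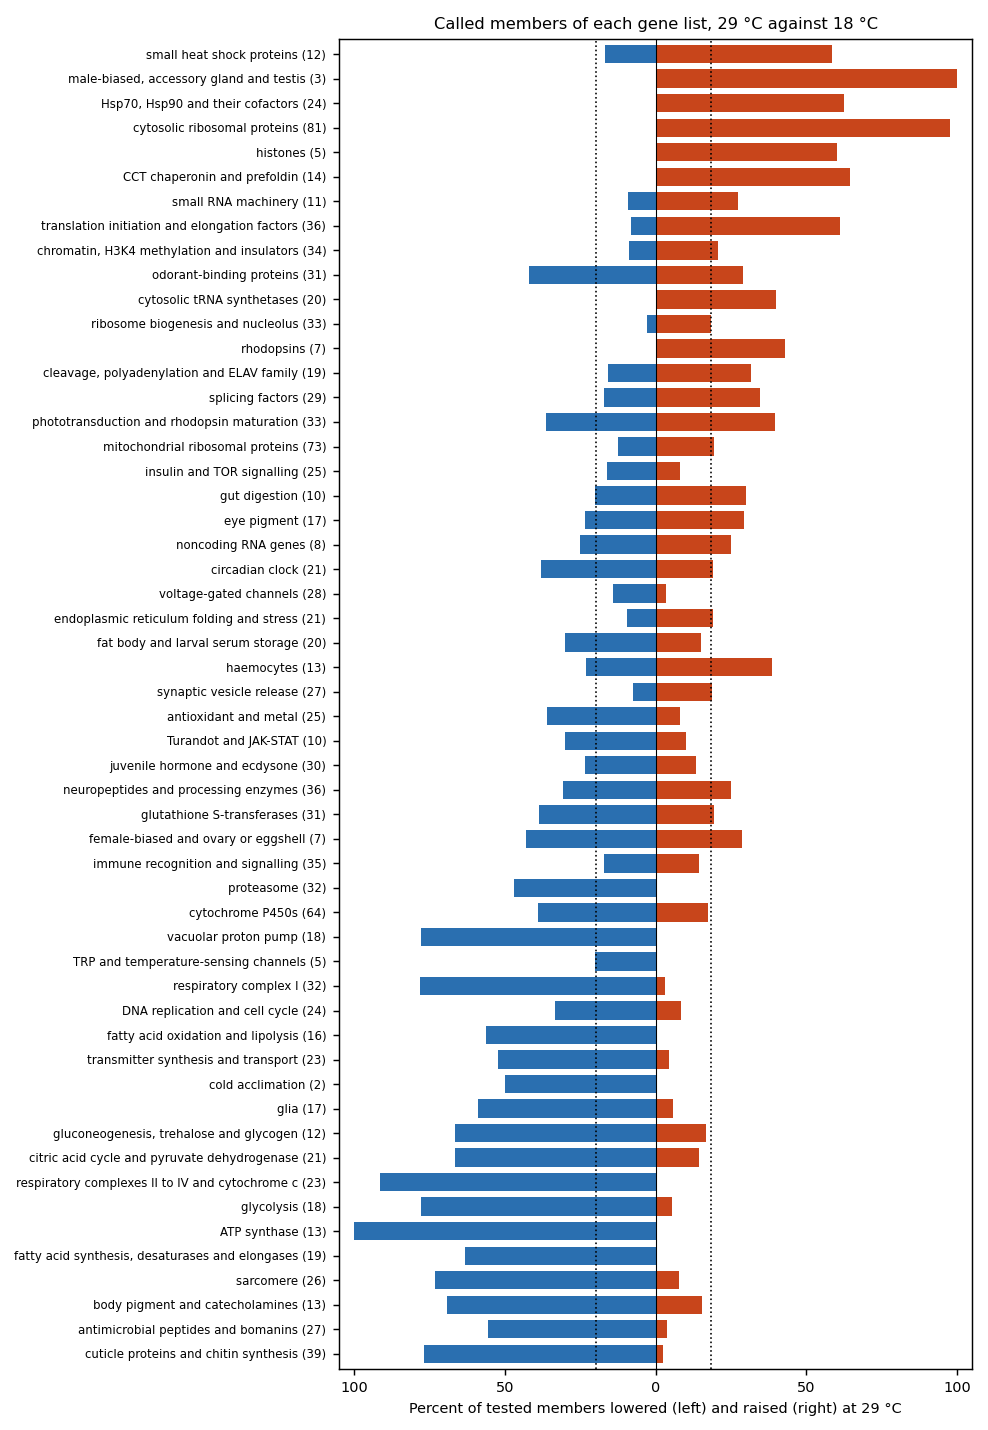
Percent of the tested members of each of the 54 gene lists that were raised (red, to the right) or lowered (blue, to the left) at 29 °C, ordered by the median log2 fold change of the list, with the number tested in brackets and dotted lines at the shares of all genes (18.2% raised and 19.8% lowered). Of the cytosolic ribosomal proteins 79 of 81 were raised, and all 13 ATP synthase subunits were lowered.

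Photoreceptor genes divided into raised and lowered groups. In fly photoreceptors light activates rhodopsin, a G protein and the phospholipase norpA, which leads to the opening of the channels trp and trpl, and arrestins then switch rhodopsin off. ninaE, the rhodopsin of the outer photoreceptors, had 21917, 22609 and 22387 CPM at 29 °C, against 12194, 12388 and 11719.7 CPM at 18 °C (log2 fold change 0.88 with SE 0.0809, edgeR adjusted p = 2.99e-08). norpA had 530.3, 550.2 and 536 CPM at 29 °C, against 259, 213 and 255.4 CPM at 18 °C (log2 fold change 1.15 with SE 0.0800, edgeR adjusted p = 5.28e-10). trpl had 1461, 1486 and 1409.7 CPM at 29 °C, against 551, 529.9 and 579.6 CPM at 18 °C (log2 fold change 1.39 with SE 0.0734, edgeR adjusted p = 1.13e-11). The warm libraries of all 3 were far above the cold ones. Galphaq, inaC and trp rose by log2 fold changes of 0.88, 0.88 and 0.61, and the arrestins Arr1 and Arr2 by 0.59 and 0.77. Arr2 had 12222, 12151 and 12879 CPM at 29 °C, against 7480.1, 7184 and 7125 CPM at 18 °C (log2 fold change 0.77 with SE 0.0796, edgeR adjusted p = 1.50e-07). Other parts of the same cascade fell: the scaffold inaD had 147, 174 and 171 CPM at 29 °C, against 258, 205 and 262 CPM at 18 °C (log2 fold change -0.56 with SE 0.100, edgeR adjusted p = 1.45e-04). The beta subunit Gbeta76C had 209, 244 and 234 CPM at 29 °C, against 355, 313 and 347 CPM at 18 °C (log2 fold change -0.56 with SE 0.0794, edgeR adjusted p = 8.70e-06). Of 33 genes of phototransduction and rhodopsin maturation, 13 rose and 12 fell (7 without the first 18 °C library), at a median of 0.08, or -0.02 with library totals alone. Of 7 rhodopsins 3 rose (median 0.11), or 2 rose and 1 fell with library totals alone, and Rh3, Rh4 and Rh5 had log2 fold changes of -0.05, -0.15 and -0.03 that did not pass. Rh6 had 319, 336 and 329 CPM at 29 °C, against 234, 192 and 213 CPM at 18 °C (log2 fold change 0.62 with SE 0.0923, edgeR adjusted p = 1.56e-05). Rh2, of the simple eyes, had 217, 215 and 214 CPM at 29 °C, against 170.3, 178 and 181 CPM at 18 °C (log2 fold change 0.29 with SE 0.0920, edgeR adjusted p = 0.0176), a call lost with library totals alone and without the first 18 °C library. All 6 photoreceptor markers (ninaE, norpA, trp, inaC, Arr2 and chp) rose. These 6 markers are themselves members of the 2 lists above, which also hold lowered and uncalled genes. They are thus no separate measure, and their part in the result was not tested.

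Eye pigment genes also moved both ways, 5 up and 4 down of 17 (median 0.02, or -0.08 with library totals alone). That is 29.4% and 23.5%, against 18.2% and 19.8% of all tested genes. v, which starts the brown pigment route from tryptophan, had 106, 95.5 and 103 CPM at 29 °C, against 48.5, 57.3 and 48.2 CPM at 18 °C (log2 fold change 0.97 with SE 0.0966, edgeR adjusted p = 9.29e-08). bw, a pigment transporter that overlaps mi, had 56.3, 56.9 and 58.8 CPM at 29 °C, against 27.3, 30.3 and 28.7 CPM at 18 °C (log2 fold change 0.99 with SE 0.108, edgeR adjusted p = 3.18e-07). Pu, GTP cyclohydrolase of the red pigment route, had 80.8, 84.9 and 86.1 CPM at 29 °C, against 233, 231 and 224 CPM at 18 °C (log2 fold change -1.45 with SE 0.0794, edgeR adjusted p = 1.75e-11). Pu was lower in every warm library, whereas v and bw were higher. The overlapping se and GstO2 gave se 77.9, 85.3 and 75.6 CPM at 29 °C, against 147, 124 and 139 CPM at 18 °C (log2 fold change -0.78 with SE 0.0935, edgeR adjusted p = 1.27e-06). Warm and cold libraries were separate in all 4 genes.

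The core clock genes differed strongly between the temperatures. The clock runs on Clk and cyc, which activate per, tim, vri, Pdp1 and cwo, whose proteins feed back on it, so that most of these transcripts cycle over the day. tim had 76.9, 75.3 and 77.1 CPM at 29 °C, against 207, 199 and 191 CPM at 18 °C (log2 fold change -1.38 with SE 0.0773, edgeR adjusted p = 2.40e-11). per had 16.7, 18.8 and 18.2 CPM at 29 °C, against 39.3, 37.6 and 40.2 CPM at 18 °C (log2 fold change -1.12 with SE 0.116, edgeR adjusted p = 1.64e-07). vri had 86.5, 96.5 and 93.8 CPM at 29 °C, against 208, 195 and 197 CPM at 18 °C (log2 fold change -1.12 with SE 0.0777, edgeR adjusted p = 5.42e-10). All 3 were lower in every warm library. Clk had 8.36, 7.59 and 8.42 CPM at 29 °C, against 1.99, 2.85 and 1.34 CPM at 18 °C (log2 fold change 1.87 with SE 0.286, edgeR adjusted p = 2.23e-05), with every warm library above every cold one. The activator and its targets thus lay on opposite sides of 0. Pdp1 and cwo fell (log2 fold changes -0.50 and -0.75), and cry, a light receptor of the clock, rose (log2 fold change 0.29). Over the list of 21 genes, 8 fell and 4 rose (median -0.02). Sources used here do not give the hour of collection of either group.

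**Figure D5:**
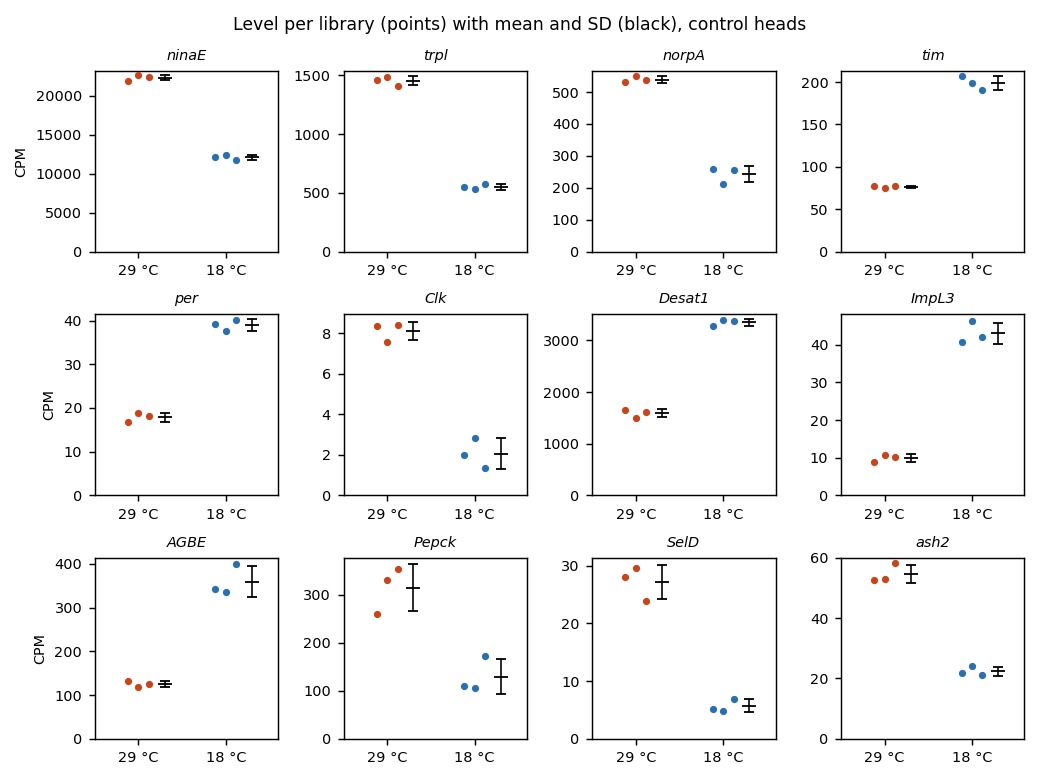
CPM in each library of 12 genes of the eye, the clock, metabolism and chromatin, with 29 °C on the left (red) and 18 °C on the right (blue), and the mean with its SD over 3 libraries in black; each axis starts at 0. The 3 points of a temperature lie apart from the 3 of the other for each gene shown.

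Genes of vesicle release and of voltage-gated channels had members on both sides of 0. Of 27 genes of synaptic vesicle release, 5 rose and 2 fell, which is 18.5% and 7.41%, against 18.2% and 19.8% of all tested genes (median -0.06). The raised count was 3 without the first or the third 29 °C library and 2 without the second 18 °C one. The lowered count was 1 without the first library of either temperature. Library totals alone gave 2 raised and 5 lowered. nSyb, the vesicle fusion protein, had 389, 403 and 402 CPM at 29 °C, against 330.2, 293 and 302 CPM at 18 °C (log2 fold change 0.37 with SE 0.0737, edgeR adjusted p = 4.34e-04). unc-13, which primes vesicles and overlaps CR44029, had 126, 124 and 131 CPM at 29 °C, against 89.6, 100.7 and 94.9 CPM at 18 °C (log2 fold change 0.42 with SE 0.0893, edgeR adjusted p = 7.97e-04). Of 28 voltage-gated channel genes 1 rose (cac) and 4 fell, which is 3.57% and 14.3%, against the same shares of all tested genes (median -0.03). cac lost its call without the first or the third 29 °C or the second or the third 18 °C library, by DESeq2 and with library totals alone. The lowered count was 2 without any 1 of the 29 °C libraries or the first or the third 18 °C library. Irk1 had 13.7, 13.6 and 11.6 CPM at 29 °C, against 17.6, 24.3 and 15.5 CPM at 18 °C (log2 fold change -0.60 with SE 0.178, edgeR adjusted p = 0.0103), not called without the second 18 °C or the third 29 °C library. Of 18 TRP and temperature-sensing channel genes in the count table, 5 had enough counts, among which wtrw was called, with 78.7, 77.3 and 81.8 CPM at 29 °C, against 106, 104 and 96.2 CPM at 18 °C (log2 fold change -0.37 with SE 0.0782, edgeR adjusted p = 7.47e-04), and TrpA1 was among those with too few counts (median -0.30). Of the 7 neuron markers 3 rose and 2 fell, and their sum ran from 856 to 936 CPM at 29 °C and from 809 to 915 CPM at 18 °C.

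Transmitter genes, several of them glial, fell in the majority of cases. Of 23, 12 fell and 1 rose (VGlut, log2 fold change 0.27, not called without the second or the third 29 °C library, the second 18 °C library or under library totals alone), at a median of -0.42. Gat, the GABA transporter of glia, had 44.3, 55.3 and 55.0 CPM at 29 °C, against 115, 105.2 and 103 CPM at 18 °C (log2 fold change -1.06 with SE 0.0905, edgeR adjusted p = 1.02e-08). Eaat1, the glutamate transporter of glia, had 179, 199 and 209 CPM at 29 °C, against 331, 304 and 346 CPM at 18 °C (log2 fold change -0.74 with SE 0.0818, edgeR adjusted p = 4.10e-07). Gad1, which makes GABA in neurons and overlaps CG14989, had 109, 117 and 119 CPM at 29 °C, against 188, 159 and 188 CPM at 18 °C (log2 fold change -0.63 with SE 0.0844, edgeR adjusted p = 4.66e-06). These 3 genes were lower in each warm library. ple, tyrosine hydroxylase, which starts dopamine synthesis and cuticle tanning, had 19.2, 25.2 and 16.7 CPM at 29 °C, against 47.8, 50.8 and 51.98 CPM at 18 °C (log2 fold change -1.30 with SE 0.138, edgeR adjusted p = 2.26e-07). Of 17 glial genes 10 fell and wrapper rose (log2 fold change 0.59), with a median of -0.43. nrv2, a sodium pump subunit, had 179, 208 and 193 CPM at 29 °C, against 329, 279 and 319 CPM at 18 °C (log2 fold change -0.68 with SE 0.0838, edgeR adjusted p = 1.76e-06). The glial identity gene repo had 24.3, 26.2 and 27.3 CPM at 29 °C, against 27.3, 31.8 and 29.5 CPM at 18 °C and did not pass (log2 fold change -0.19, edgeR adjusted p = 0.181). Over the 7 glial markers, 5 fell, repo and moody did not pass, and the sum ran from 917 to 1044 CPM at 29 °C and from 1412 to 1611 CPM at 18 °C. The part of the glial markers in these results was not tested.

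Neuropeptide genes changed one by one. Of 36, 9 rose and 11 fell, which is 25.0% and 30.6%, against 18.2% and 19.8% of all tested genes (median -0.11). Dsk, the precursor of the satiety peptide drosulfakinin, had 176, 203 and 208 CPM at 29 °C, against 79.6, 92.2 and 76.4 CPM at 18 °C (log2 fold change 1.24 with SE 0.101, edgeR adjusted p = 5.72e-09). Orcokinin had 38.1, 50.9 and 43.2 CPM at 29 °C, against 20.6, 20.5 and 23.04 CPM at 18 °C (log2 fold change 1.06 with SE 0.113, edgeR adjusted p = 2.59e-07), and NPF, AstC and the clock peptide Pdf rose by log2 fold changes of 0.65, 0.56 and 0.46. Other peptide genes fell. Nplp3 had 937, 1212 and 976 CPM at 29 °C, against 4396, 3262 and 5209 CPM at 18 °C (log2 fold change -2.04 with SE 0.131, edgeR adjusted p = 1.65e-10). CCHa2, a nutrient-dependent peptide that acts on insulin-producing cells, had 129.5, 132 and 139.6 CPM at 29 °C, against 238, 211 and 270.4 CPM at 18 °C (log2 fold change -0.84 with SE 0.0905, edgeR adjusted p = 2.78e-07). Warm and cold libraries did not overlap for any of these. Among the insulin-like peptides Ilp5 and Ilp6 fell, while Ilp2 and Ilp3 had log2 fold changes of 0.10 and 0.18 that did not pass. Ilp5, which overlaps CG43897, had 22.8, 26.6 and 26.0 CPM at 29 °C, against 49.6, 47.9 and 50.1 CPM at 18 °C (log2 fold change -0.96 with SE 0.117, edgeR adjusted p = 1.37e-06). Ilp6, made in fat body and overlapping Raf, had 24.7, 22.0 and 17.4 CPM at 29 °C, against 31.5, 36.5 and 36.2 CPM at 18 °C (log2 fold change -0.70 with SE 0.134, edgeR adjusted p = 2.53e-04). The cold libraries were again the higher ones. Across 25 genes of insulin and TOR signalling, 4 fell and 2 rose. The raised count was 1 without any 1 of the 29 °C libraries and 0 without the first or the third 18 °C library, and library totals alone gave 0 raised and 5 lowered at a median of -0.03, against 0.06. Sdr, a secreted decoy that binds insulin-like peptides, had 5.51, 5.59 and 3.93 CPM at 29 °C, against 10.5, 11.7 and 8.04 CPM at 18 °C (log2 fold change -1.05 with SE 0.209, edgeR adjusted p = 4.36e-04). Of 30 juvenile hormone and ecdysone genes 7 fell and 4 rose, which is 23.3% and 13.3%, against 19.8% and 18.2% of all tested genes (median -0.11). The raised count was 2 without the second or the third 29 °C library, and library totals alone gave 1 raised and 7 lowered. The hormone epoxide hydrolase Jheh1 had 62.2, 71.9 and 78.1 CPM at 29 °C, against 120.1, 129.6 and 128 CPM at 18 °C (log2 fold change -0.83 with SE 0.0924, edgeR adjusted p = 4.17e-07). The sterol-binding Npc2a had 397, 429.6 and 394 CPM at 29 °C, against 253, 235 and 259 CPM at 18 °C (log2 fold change 0.71 with SE 0.0742, edgeR adjusted p = 1.83e-07), higher in every warm library.

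Cuticle genes had the lowest median of all lists. Of 80 genes of cuticle proteins and chitin synthesis in the count table, 39 had enough counts, of which 30 fell, Cpr72Ec rose and 8 did not pass (median log2 fold change -1.70). The filter on counts can admit a gene through a single group where it is high, as with obst-B below. The counts and the median of this list are therefore partly set by the filter. Cpr62Bb had 7.75, 12.4 and 11.4 CPM at 29 °C, against 40.9, 45.7 and 48.8 CPM at 18 °C (log2 fold change -2.09 with SE 0.132, edgeR adjusted p = 1.43e-10). Cpr62Bc had 1.63, 3.00 and 1.31 CPM at 29 °C, against 22.8, 14.4 and 36.4 CPM at 18 °C (log2 fold change -3.56 with SE 0.350, edgeR adjusted p = 8.42e-08). kkv, the chitin synthase, and knk, which organises chitin, had log2 fold changes of -1.86 and -1.91 and were called. obst-B, a chitin-binding protein, was at 0 in all 3 warm libraries and had 5.43, 2.17 and 6.43 CPM at 18 °C, which is at least 7.92-fold lower at 29 °C when 3 counts per library bound the warm level, and with obst-B at that bound the median of the list is the same. Transcripts of body pigment and catecholamine genes fell as well, with 9 of 13 genes lowered and 2 raised (median -0.79). The raised ones were Dat and yellow-h. Of these, 1 was called without the third 29 °C or the second 18 °C library and with library totals alone. yellow-e had 14.1, 16.2 and 15.9 CPM at 29 °C, against 40.7, 27.0 and 45.0 CPM at 18 °C (log2 fold change -1.26 with SE 0.173, edgeR adjusted p = 6.75e-06). b, an aspartate decarboxylase that makes beta-alanine for tan pigment, had 75.3, 80.5 and 85.5 CPM at 29 °C, against 144, 130.03 and 143 CPM at 18 °C (log2 fold change -0.79 with SE 0.0879, edgeR adjusted p = 4.55e-07).

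Muscle genes were lower in the warm. Of 26 tested sarcomere genes, 19 fell and 2 rose (median -0.68). Mlc2, a myosin light chain, had 888, 1176 and 846 CPM at 29 °C, against 2227, 1839.8 and 2787 CPM at 18 °C (log2 fold change -1.24 with SE 0.135, edgeR adjusted p = 3.25e-07). Prm, paramyosin of the thick filament, had 142, 178 and 141 CPM at 29 °C, against 411, 311 and 497 CPM at 18 °C (log2 fold change -1.40 with SE 0.124, edgeR adjusted p = 1.89e-08). Zasp66, of the Z disc, had 180.1, 181 and 172 CPM at 29 °C, against 345, 343 and 369 CPM at 18 °C (log2 fold change -0.99 with SE 0.0785, edgeR adjusted p = 4.03e-09). All 3 genes were lower in every warm library. Act57B had 399.8, 338 and 385 CPM at 29 °C, against 898, 725 and 1164 CPM at 18 °C (log2 fold change -1.31 with SE 0.122, edgeR adjusted p = 3.75e-08), with snoRNA:660 overlapping it. No warm library of these 4 genes reached a cold one. The raised pair was Act88F and TpnC41C. Act88F, an actin of flight muscle, had 1.84, 211 and 3.56 CPM at 29 °C, against 7.96, 7.06 and 7.50 CPM at 18 °C, so that the groups overlapped and the rise rested on the second 29 °C library, without which neither gene was called raised. Without the first or the second 18 °C library 1 of the pair was called. Flight muscle transcripts in that warm library run against the direction of the list. Summed muscle markers were 1965, 2793 and 1878 CPM at 29 °C and 4318, 3593 and 5394 CPM at 18 °C, with 4 of 5 tested markers lowered, and their part in the result was not tested.

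Antimicrobial peptide genes were mostly lower at 29 °C and spread widely at 18 °C. Of 27 tested peptides and bomanins, 15 fell, CG15068 rose and 11 did not pass (median -0.83), and without the third 29 °C library 2 were called raised. Diptericin, Dpt, which acts on gram-negative bacteria, had 0.816, 2.00 and 2.43 CPM at 29 °C, against 8.50, 33.0 and 179 CPM at 18 °C (log2 fold change -5.25 with SE 1.07, edgeR adjusted p = 5.19e-04). Drosocin, Dro, had 2.86, 2.20 and 5.05 CPM at 29 °C, against 15.2, 56.6 and 179 CPM at 18 °C (log2 fold change -4.55 with SE 0.774, edgeR adjusted p = 7.84e-05). AttC, an attacin, had 35.3, 16.58 and 18.0 CPM at 29 °C, against 83.6, 339 and 456 CPM at 18 °C (log2 fold change -3.65 with SE 0.501, edgeR adjusted p = 6.32e-06). The cold libraries of these genes differed more than 5-fold among themselves, with the first the lowest, yet each lay above the warm ones. Dpt was not called by limma voom (adjusted p = 0.110). Drsl4, of the drosomycin family, was steadier, with 428, 450.0 and 452 CPM at 29 °C, against 731, 782 and 742 CPM at 18 °C (log2 fold change -0.76 with SE 0.102, edgeR adjusted p = 4.40e-06). Receptors and signalling genes of immunity moved both ways, with 6 lowered and 5 raised of 35, which is 17.1% and 14.3%, against 19.8% and 18.2% of all genes (median -0.15), 3 raised without the third 29 °C library, and 15 lowered and 3 raised with library totals alone. PGRP-SD, a pattern recognition protein that overlaps CG7492, had 36.1, 34.2 and 32.0 CPM at 29 °C, against 63.9, 84.8 and 79.3 CPM at 18 °C (log2 fold change -1.16 with SE 0.178, edgeR adjusted p = 2.43e-05). Tep2, a thioester opsonin, had 60.8, 60.7 and 56.2 CPM at 29 °C, against 113, 113 and 121 CPM at 18 °C (log2 fold change -0.96 with SE 0.0907, edgeR adjusted p = 4.20e-08). pll, the kinase of the Toll pathway, had 15.5, 16.8 and 18.2 CPM at 29 °C, against 9.77, 9.91 and 9.38 CPM at 18 °C (log2 fold change 0.79 with SE 0.157, edgeR adjusted p = 3.95e-04), with TfIIA-L overlapping it.

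Stress peptides of the Turandot family, secreted after infection, heat and other stress, were lower at 29 °C. TotA had 253, 257 and 260.4 CPM at 29 °C, against 629.7, 558 and 558 CPM at 18 °C (log2 fold change -1.18 with SE 0.156, edgeR adjusted p = 3.99e-06). TotC had 66.5, 30.2 and 40.8 CPM at 29 °C, against 254.6, 194 and 225 CPM at 18 °C (log2 fold change -2.29 with SE 0.238, edgeR adjusted p = 1.73e-07). TotM had 19.6, 13.98 and 12.5 CPM at 29 °C, against 56.5, 30.1 and 26.0 CPM at 18 °C (log2 fold change -1.31 with SE 0.253, edgeR adjusted p = 3.10e-04). These 3 were the lowered members of 10 in the Turandot and JAK-STAT list (median -0.10), each without overlap, and the kinase hop rose, though not without the first 29 °C library. smp-30, a calcium-binding protein known from cold acclimation that overlaps jvl, had 57.5, 58.7 and 55.4 CPM at 29 °C, against 90.8, 112 and 82.0 CPM at 18 °C (log2 fold change -0.74 with SE 0.0976, edgeR adjusted p = 3.89e-06), and the list's other tested member, Hsromega, had a log2 fold change of -0.11 that did not pass. Of haemocyte genes 5 of 13 rose and 3 fell (median -0.06). Hml, the blood cell clotting protein, had 101.2, 112 and 119 CPM at 29 °C, against 61.3, 78.5 and 54.7 CPM at 18 °C (log2 fold change 0.76 with SE 0.107, edgeR adjusted p = 9.34e-06), whereas the collagen IV genes Cg25C and vkg fell (log2 fold changes -0.66 and -0.59). The 5 raised haemocyte genes became 2 without the first or the third library of either temperature, 1 without the second 29 °C library and 1 with library totals alone. Summed haemocyte markers ran from 141 to 165 CPM at 29 °C and from 86.0 to 120 CPM at 18 °C, with 3 of 4 tested markers raised, and their part in these results was not tested.

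Among antioxidant and metal genes 9 of 25 fell and 2 rose (median -0.07). Prx2540-2 and its close copy Prx2540-1 are peroxiredoxins whose reads could be split between them, with log2 fold changes of -2.23 and -1.50. Prx2540-2 had 12.8, 10.6 and 12.4 CPM at 29 °C, against 61.0, 45.3 and 63.5 CPM at 18 °C (edgeR adjusted p = 6.54e-11). PHGPx, a glutathione peroxidase that overlaps Strip, had 154, 149 and 149 CPM at 29 °C, against 230.3, 224 and 216 CPM at 18 °C (log2 fold change -0.57 with SE 0.0728, edgeR adjusted p = 2.63e-06). The raised genes were MtnA and Jafrac1, of which 1 was called without the second 29 °C or the first 18 °C library and with library totals alone. Of 64 P450 genes, enzymes of detoxification and hormone metabolism, 25 fell and 11 rose (median -0.26), with 7 raised without the second 29 °C library. Cyp6d5, which overlaps rdx, had 225, 215 and 203 CPM at 29 °C, against 576, 613 and 569 CPM at 18 °C (log2 fold change -1.45 with SE 0.0790, edgeR adjusted p = 1.72e-11). Cyp9f2 had 146, 170.4 and 161 CPM at 29 °C, against 309.6, 306 and 317 CPM at 18 °C (log2 fold change -0.97 with SE 0.0807, edgeR adjusted p = 7.78e-09). The groups of all 4 genes were separate. Of 31 glutathione S-transferases 12 fell and 6 rose (median -0.12). GstD9 had 75.5, 72.7 and 69.6 CPM at 29 °C, against 24.8, 22.1 and 24.4 CPM at 18 °C (log2 fold change 1.62 with SE 0.111, edgeR adjusted p = 4.75e-10). GstZ2 had 63.6, 73.1 and 79.4 CPM at 29 °C, against 21.4, 17.24 and 23.3 CPM at 18 °C (log2 fold change 1.83 with SE 0.128, edgeR adjusted p = 6.10e-10). GstE13, which overlaps CG18659, had 14.48, 15.4 and 17.4 CPM at 29 °C, against 38.4, 32.8 and 39.7 CPM at 18 °C (log2 fold change -1.21 with SE 0.112, edgeR adjusted p = 3.45e-08). Members of 1 family thus lay on both sides, with log2 fold changes from -1.89 to 1.83.

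Odorant-binding proteins, secreted carriers found in sensilla and also in fat body and haemolymph, had called members on both sides of 0. Of 31 tested, 13 fell and 9 rose (median 0.21), and without the first 29 °C library 5 rose. Obp56d had 615, 532 and 584 CPM at 29 °C, against 954, 1202 and 987 CPM at 18 °C (log2 fold change -0.86 with SE 0.103, edgeR adjusted p = 1.16e-06). Obp18a had 131, 117 and 129 CPM at 29 °C, against 196, 215 and 192 CPM at 18 °C (log2 fold change -0.68 with SE 0.0805, edgeR adjusted p = 9.61e-07). Obp19b had 56.3, 56.3 and 59.2 CPM at 29 °C, against 31.1, 17.24 and 26.5 CPM at 18 °C (log2 fold change 1.23 with SE 0.145, edgeR adjusted p = 9.81e-07), with all warm libraries above the cold. Os-C, with 23.5 CPM in the first 29 °C library and 0 in the other 5, was called although its groups overlapped. Its mean was at least 13.4-fold higher at 29 °C when 3 counts per library bound the cold level, and with Os-C at that bound the median of the list is the same. The 6 olfactory and taste markers summed to 53.0, 4.99 and 10.5 CPM at 29 °C and 11.6, 22.1 and 8.31 CPM at 18 °C, and the part of antennal tissue in these calls was not tested.

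Fat body genes moved gene by gene, with 6 lowered and 3 raised of 20 at a median of -0.03 (5 raised without the second 18 °C library). fit, a peptide of female fat body that follows protein feeding and overlaps CR45046, had 50.4, 34.4 and 50.0 CPM at 29 °C, against 141, 389.5 and 300.1 CPM at 18 °C (log2 fold change -2.62 with SE 0.245, edgeR adjusted p = 3.71e-08). ppl, of glycine breakdown, had 145, 138 and 136 CPM at 29 °C, against 224, 224 and 246 CPM at 18 °C (log2 fold change -0.73 with SE 0.0910, edgeR adjusted p = 2.05e-06). Yp2 had 9985, 8946 and 9179 CPM at 29 °C, against 8693, 19828 and 13839.8 CPM at 18 °C (log2 fold change -0.59, edgeR adjusted p = 0.0270). Its groups overlapped, and it was not called without the second 18 °C library (edgeR adjusted p = 0.272), the second or the third 29 °C library, or by DESeq2. Summed fat body markers ran from 33527 to 37704 CPM at 29 °C and from 15066 to 27682 CPM at 18 °C, of which Yp1 made up the most, and their part in these results was not tested. Among genes that differ between the sexes, the yolk and eggshell list had 3 lowered and 2 raised members of 7 (median -0.12), with 1 lowered without the second or the third 29 °C library. All 3 tested male-biased genes, roX1, roX2 and msl-2, rose (median 0.81). roX1, which overlaps ec, had 184, 235 and 237 CPM at 29 °C, against 191, 54.2 and 143 CPM at 18 °C (log2 fold change 0.77, edgeR adjusted p = 0.0418). Its groups overlapped, and it lost its call without the second 18 °C library (edgeR adjusted p = 0.184), without the third 18 °C or the second or the third 29 °C library, with library totals alone and by DESeq2 (adjusted p = 0.200). msl-2, the protein that male flies need for dosage compensation, had 11.8, 14.4 and 14.4 CPM at 29 °C, against 8.87, 7.06 and 7.23 CPM at 18 °C (log2 fold change 0.81 with SE 0.192, edgeR adjusted p = 0.00198). As the sex of the flies is not known from the sources used here, the part of the mix of males and females in these values was not tested. Digestive genes, which the head holds at low levels, had 3 raised and 2 lowered of 10 at a median of 0.03, or -0.07 with library totals alone (1 lowered without the first or the third 29 °C or the third 18 °C library). These counts are 30.0% and 20.0%, against 18.2% and 19.8% of all tested genes. The glucosidase gene Mal-B2, which overlaps Pde1c, had 76.5, 66.5 and 70.9 CPM at 29 °C, against 148, 137 and 153 CPM at 18 °C (log2 fold change -1.03 with SE 0.0874, edgeR adjusted p = 1.01e-08).

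Chromatin genes included several with clear rises. Nurf-38, a pyrophosphatase that is also a subunit of the NURF remodeller, had 589.6, 556 and 557 CPM at 29 °C, against 246, 269 and 279 CPM at 18 °C (log2 fold change 1.10 with SE 0.0766, edgeR adjusted p = 5.50e-10). ash2, a core subunit of the complexes that methylate histone H3 at lysine 4, and overlapping CG31125, had 52.8, 52.9 and 58.2 CPM at 29 °C, against 21.9, 24.2 and 21.2 CPM at 18 °C (log2 fold change 1.27 with SE 0.0960, edgeR adjusted p = 1.78e-09). Cfp1, of the same kind of complex, and the methyltransferase trx moved apart, with log2 fold changes of 0.64 and -0.36. brm, the ATPase of the SWI/SNF remodeller, had 47.7, 39.7 and 45.7 CPM at 29 °C, against 26.2, 26.3 and 28.4 CPM at 18 °C (log2 fold change 0.72 with SE 0.118, edgeR adjusted p = 4.65e-05). Ibf1, an insulator binding factor, had 9.99, 12.98 and 10.5 CPM at 29 °C, against 6.51, 6.24 and 6.70 CPM at 18 °C (log2 fold change 0.79 with SE 0.199, edgeR adjusted p = 0.00338). Of 34 genes in the list 7 rose, close to the 18.2% of all genes, and 3 fell (Trl, dwg and trx), at a median of 0.25. The lowered count was 0 without the first library of either temperature and 1 without the second or the third 29 °C library or the second 18 °C one. Among histone genes 3 of 5 rose (median 0.54). The replication-independent His4r had 1248, 1312 and 1284 CPM at 29 °C, against 842, 827 and 849 CPM at 18 °C (log2 fold change 0.61 with SE 0.0783, edgeR adjusted p = 2.72e-06).

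RNA-processing genes lay on both sides of 0. Of 29 splicing factors 10 rose and 5 fell, at a median of 0.08, which became -0.01 with 6 raised and 8 lowered under library totals alone, and 2 fell without the first 18 °C library. Hrb98DE, an hnRNP A homologue, had 168, 158 and 171 CPM at 29 °C, against 90.3, 91.8 and 95.1 CPM at 18 °C (log2 fold change 0.84 with SE 0.0803, edgeR adjusted p = 4.98e-08). Its relative Hrb87F fell, with 34.9, 37.3 and 39.3 CPM at 29 °C, against 52.3, 58.6 and 55.7 CPM at 18 °C (log2 fold change -0.58 with SE 0.0905, edgeR adjusted p = 2.89e-05). Of 19 genes of cleavage, polyadenylation and the ELAV family, 6 rose and 3 fell (median 0.11), with 3 raised without the first 29 °C library or under library totals alone. hrg, the poly(A) polymerase, had 45.7, 43.5 and 54.5 CPM at 29 °C, against 29.5, 28.8 and 27.1 CPM at 18 °C (log2 fold change 0.75 with SE 0.114, edgeR adjusted p = 2.21e-05), with its warm libraries above the cold. elav, a neuronal RNA-binding protein that favours distal poly(A) sites, had 49.4, 56.1 and 46.6 CPM at 29 °C, against 34.0, 35.2 and 32.2 CPM at 18 °C (log2 fold change 0.58 with SE 0.0983, edgeR adjusted p = 7.74e-05). Its relative fne had 76.7, 78.5 and 67.6 CPM at 29 °C, against 56.6, 42.5 and 41.8 CPM at 18 °C (log2 fold change 0.66 with SE 0.121, edgeR adjusted p = 1.94e-04). Of 11 small RNA genes 3 rose and AGO2 fell (median 0.36). loqs, a partner of Dicer that overlaps CR44599, had 111, 125 and 128 CPM at 29 °C, against 82.9, 73.7 and 84.7 CPM at 18 °C (log2 fold change 0.60 with SE 0.0894, edgeR adjusted p = 1.63e-05). The raised count was 5 without the first and 1 without the third 18 °C library, and AGO2 was not called without the second 18 °C one. Of 8 tested genes of the noncoding RNA list roX1 and roX2 rose and CR31451 and sphinx fell, at a median of 0.02, or -0.08 with library totals alone, and with a library left out each count ran from 1 to 2: the raised one was 1 without the second or the third library of either temperature, and the lowered one was 1 without the second or the third 29 °C or the first or second 18 °C library.

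DNA replication genes were mostly lower in the warm where they could be called, in a tissue of mostly postmitotic cells. Of 34 genes in the count table, 24 had enough counts, of which 8 fell and E2f1 and RpA-70 rose (median -0.34). That is 33.3% lowered and 8.33% raised, against 19.8% and 18.2% of all tested genes. The filter on counts can admit a gene through a single group where it is high, so these shares are partly set by the filter. dup, the licensing factor Cdt1, and overlapping SRPK, had 5.51, 3.20 and 5.62 CPM at 29 °C, against 20.1, 21.0 and 25.2 CPM at 18 °C (log2 fold change -2.18 with SE 0.197, edgeR adjusted p = 2.26e-08). PCNA, the sliding clamp, had 2.04, 0.999 and 1.12 CPM at 29 °C, against 7.96, 9.50 and 7.23 CPM at 18 °C (log2 fold change -2.58 with SE 0.308, edgeR adjusted p = 1.11e-06). Mcm2, of the replicative helicase, had 0.816, 0.799 and 0.749 CPM at 29 °C, against 3.80, 3.94 and 3.48 CPM at 18 °C (log2 fold change -2.23 with SE 0.411, edgeR adjusted p = 1.92e-04). Cold libraries were several times the warm ones in all 3, and the warm levels of Mcm2 were close to the 3-count limit.

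Genes next to each other in the genome were compared by their order in the RefSeq Release 6 table. Of 8969 adjacent pairs of tested genes, both were called in 1331, and in 760 of those (57.1%) they had the same direction. No share for genes in random order was computed, so the 57.1% is a description and does not show clustering. Runs of at least 3 neighbours that all changed at least 2-fold in the same direction numbered 7 and held 23 genes. The first joined CG31904, Acp1, CG7214 and CG7203, all lowered, and CG7203 had 166, 259 and 183 CPM at 29 °C, against 1351, 820.3 and 1671 CPM at 18 °C (log2 fold change -2.66 with SE 0.196, edgeR adjusted p = 1.35e-09). A second lowered run was CG13044, CG13043, Nplp3 and CG13041, and CG13044 had 13.3, 13.4 and 11.6 CPM at 29 °C, against 31.1, 31.4 and 43.9 CPM at 18 °C (log2 fold change -1.45 with SE 0.145, edgeR adjusted p = 1.08e-07). Cuticle genes stood in 2 more lowered runs, Cpr97Ea and Cpr97Eb beside CG14258, and Cpr92F beside CG4000 and CR43452, although Cpr97Ea lost its call without the first or the third 29 °C or the third 18 °C library and under DESeq2. CG4000 had 161, 211 and 162 CPM at 29 °C, against 978, 823 and 1122 CPM at 18 °C (log2 fold change -2.45 with SE 0.116, edgeR adjusted p = 2.29e-12). roX2 was flanked by raised genes on both sides: CG11695 had 27.3, 27.2 and 20.6 CPM at 29 °C, against 10.5, 9.09 and 6.70 CPM at 18 °C (log2 fold change 1.47 with SE 0.170, edgeR adjusted p = 6.67e-07). nod, a kinesin-like protein that overlaps CG1561, had 6.32, 6.59 and 7.67 CPM at 29 °C, against 4.34, 3.26 and 2.14 CPM at 18 °C (log2 fold change 1.03 with SE 0.248, edgeR adjusted p = 0.00229). The remaining runs were CG30082, CG30090 and CG33460, lowered, and CG15221, inaF-D and inaF-B, raised, of which the last 2 shared reads. Neighbours that overlap or share reads count as separate genes here, so the share of agreeing pairs includes them. Whether reads were counted by strand is not stated, so reads of overlapping genes could not be told apart. Besides the overlaps given above, this holds for ACC with Nup44A, ATPCL with CG8320 and CG8370, BEAF-32 with CR42254, CR45045 with CG14322, Galphaq with CG45086, Ilp2 with CG32052, Ilp3 with CG32052, Irk1 with cnc, ND-SGDH with Atg12, Ns2 with CG14480, Rh4 with sina, RpL41 with NaCP60E, VGlut with CG18641, brm with CG17026 and CG17027, cry with vib, elav with arg, inaD with RpL23, repo with CG7156, skap with CG11964 and wtrw with mRpS9.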

How the data were processed

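RNA was measured in heads of control flies, with 3 libraries at 29 °C and 3 at 18 °C. The deposited file holds raw read counts per gene for 12 libraries, made by the authors, with no normalization. STAR, TopHat2 and genome build dm3 are named in the submitters' processing notes. For the read counter, annotation and strand setting, nothing is given in the sources used here.

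Counts were tested with edgeR 4.0.16 in R 4.3.3 (quasi-likelihood, TMM scaling) in 1 model of group means over all 12 libraries, which share 1 estimate of the spread. Genes passing filterByExpr (minimum count 10, minimum total 15) were kept, 9056 of 16719, with Benjamini-Hochberg adjustment across all of these and a threshold of 0.05. CPM are scaled by TMM, and the SE is the log2 fold change divided by the root of the test statistic. The procedure was tested on simulated counts with known changes.

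Named genes are BEAF-32 and the 15 largest rises and falls among called genes that average 5 CPM or more without overlap between groups. The 10 largest CPM gains and losses among called genes without overlap are named too. So are up to 4 genes per list with the lowest p, the genes of the first 5 neighbour runs and the most abundant marker of each cell type. Other list members are named as well, chosen after their values were seen. Some genes that the rule or a list count covers are not reported here by name. The members and lists were chosen with earlier results of these data known. Gene symbols were matched to the RefSeq Release 6 table for names, overlaps and order, with 12673 matched directly, 3900 by synonym and 146 not matched. Alternatives were 22 settings, including DESeq2 1.42.0 and limma 3.58.1. Replicate numbers were not used to pair the samples in the main test. Peak files of other flies at 1 temperature were not used here.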

Additional observations from a re-analysis of the deposited data

Results flagged for a closer look

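The response to temperature in control heads was set against that in BEAF-32 knockdown heads, with the difference tested as an interaction term in the same edgeR model. The difference passed an adjusted p of 0.05 for 209 of 9056 genes, among them 25 of the 240 named genes, which had been chosen by their values in control heads, that is by 1 side of this difference. Values below are the log2 fold change in knockdown heads minus that in control heads.

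smp-30, a calcium-binding protein, had opposite responses, with a log2 fold change of 0.87 in knockdown heads and -0.74 in control heads, so that the difference was 1.61 (edgeR adjusted p = 1.45e-06). The difference passed for 5 named enzymes of sugar metabolism that fell in control heads, of which CG9485 was not called in knockdown heads, and it did not pass for others such as Pgk. The difference was 1.41 for lactate dehydrogenase ImpL3, 0.83 for the branching enzyme AGBE, 1.01 for the debranching enzyme CG9485, 0.58 for Gapdh1 and 0.57 for Gpdh. Neither cytochrome c nor the oxidase subunit named next passed in knockdown heads. The difference was 0.60 for cytochrome c Cyt-c-p and 0.46 for the cytochrome oxidase subunit cype. Other lowered genes with a difference above 0 were DptB (3.04), Lsp2 (2.52), Obp99a (1.87), CG11458 (1.12), Nplp3 (1.07), Drsl3 (0.83), CG17108 (0.66) and Mal-B2 (0.60). CG13044 fell further in knockdown heads, with a difference of -2.20.

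Genes raised in control heads with a difference below 0 were CG9377 (-1.78), GstZ2 (-0.81), Cpr72Ec (-0.81), inaF-B (-0.81), ash2 (-0.74), T-cp1 (-0.58), CR44030 (-0.51) and trpl (-0.48). T-cp1 was not called in knockdown heads (edgeR adjusted p = 0.0688). For ash2, of the histone methyltransferase complexes, the log2 fold change was 0.53 in knockdown heads and 1.27 in control heads.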

How the results depend on the processing

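In 22 alternative settings the numbers of called, raised, lowered and at least 2-fold changed genes stayed within 1.5 times those of the main test, and no named gene reversed. With 1 of the 12 libraries left out, knockdown libraries included, 2948 to 3514 genes were called, 1395 to 1728 raised, 1523 to 1809 lowered and 646 to 695 changed at least 2-fold. Leaving out a control library gave fewer calls than the 3440 of the main test, with 2948 to 3105 called, 1395 to 1466 raised and 1523 to 1639 lowered. DESeq2 called 2828 genes, limma voom 3478, and the fit of the 6 control libraries alone 3444. Library totals in place of composition scaling gave 1144 raised and 2241 lowered genes, 33.8% raised of those called, against 47.8% in the main test, and moved 25 raised or lowered list counts by over 1.5 times. Without the second 18 °C and the first 29 °C library together 2712 genes were called, and at an adjusted p of 0.01 2431. With replicate number as a block 3368 genes were called, 1608 raised and 1760 lowered, and LManII and roX1 lost their call (edgeR adjusted p = 0.0555 and 0.0694). Same-numbered libraries deviated from their group means with correlations of -0.0799 to 0.0189, and other pairs with -0.0723 to 0.113. With so few libraries these values cannot tell whether same-numbered samples share a culture or preparation. Of 238 named genes called, 212 kept call and direction in every setting. The planned description of promoter motifs was not run. Depth limited the precision of genes under 2 CPM, where the median SE of the log2 fold change was 0.472. The 28.4% called there are partly set by the filter, which can admit such genes through a group where they are high.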

Other observations

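Genes for noncoding RNAs outside the lists above also differed between 29 °C and 18 °C. CR31781 had 107, 103 and 120 CPM at 29 °C, against 34.9, 30.8 and 30.3 CPM at 18 °C (log2 fold change 1.77, SE 0.0945, edgeR adjusted p = 1.17e-11). CR45647 rose by a log2 fold change of 1.89, CG32553 by 1.86 and CR42868 by 1.45, each without overlap between groups. CG32368 had 48.3, 31.4 and 34.6 CPM at 29 °C, against 90.3, 169.5 and 69.4 CPM at 18 °C (log2 fold change -1.56, SE 0.326, edgeR adjusted p = 6.56e-04), with the second 18 °C library the highest. CR45278 fell with a log2 fold change of -0.80 and CR45197, which overlaps sgg, with -0.76. CR43836 had a log2 fold change of -2.24, but its counts nearly equalled those of CG10962, so that the reads of the pair could not be told apart. Of 14 small nuclear RNA genes, at a median level of 3.23 CPM, 8 rose. Of 64 antisense RNA genes, at a median of 2.53 CPM, 21.9% rose and 15.6% fell, near the 18.2% and 19.8% of all tested genes. These genes were chosen after their values were seen.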
